A study of Mus musculus with 2 samples.

Results

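The genes described here encode the core subunits of Polycomb repressive complex 1 (PRC1) in mouse embryonic stem cells (mESCs) of the iXist-ChrX-Dom line, sampled without Xist induction. They were chosen by name, as the catalytic RING proteins (Ring1 and Rnf2), the PCGF proteins (Pcgf1, Pcgf2, Pcgf3, Bmi1, Pcgf5 and Pcgf6) and the RYBP-type subunits (Rybp and Yaf2), and all 10 were present among the 22556 genes of the count table. The libraries were made from polyadenylated RNA of a female line from a cross of Dom/129S with Cast, in which the Xist promoter of the Dom/129S allele had been replaced with a TetOn promoter. Both libraries came from untreated cells (0 h), so the series holds 1 group with 2 replicates and no treatment to compare. The line is a single engineered line that had been grown on inactivated fibroblast feeders and was pre-plated to remove them. Nothing in the labels says whether the replicates were separate cultures, so the spread between them may be technical.

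PRC1 is the ubiquitin ligase that places monoubiquitin on a lysine of histone H2A (H2AK119ub1). Each complex pairs a RING protein, RING1 or RNF2 (also called RING1B), with a PCGF protein, and the PCGF protein decides which other subunits join. Canonical complexes hold PCGF2 or BMI1 (PCGF4) with a CBX chromodomain protein that reads H3K27me3 and with a PHC protein, whereas variant complexes hold RYBP or YAF2 in place of CBX. The variant complex with PCGF1 is brought to CpG islands by KDM2B, that with PCGF6 to germline genes with MGA and MAX, and those with PCGF3 or PCGF5 start Polycomb recruitment to the inactive X chromosome in response to Xist. The libraries therefore report the PRC1 transcripts present before Xist is expressed.

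The RING protein and the PCGF protein of a complex meet through their RING fingers, small domains that bind zinc and that in RING1 and RNF2 carry the contact with the ubiquitin-conjugating enzyme. Of the 4 paralogue pairs whose transcript levels are compared below, the coding sequence of the RING finger is shown for Ring1 with Rnf2 and for Pcgf2 with Bmi1, because the members of these pairs stood far apart in level. Sequences are from GENCODE M21 transcripts on GRCm38 (the assembly of mm10), run 5′ to 3′ on the coding strand across an exon junction, and carry in capitals the codons of the 8 zinc-binding cysteines and histidines.
Ring1: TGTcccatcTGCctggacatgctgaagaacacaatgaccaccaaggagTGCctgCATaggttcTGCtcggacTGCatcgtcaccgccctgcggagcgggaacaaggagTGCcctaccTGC
Rnf2: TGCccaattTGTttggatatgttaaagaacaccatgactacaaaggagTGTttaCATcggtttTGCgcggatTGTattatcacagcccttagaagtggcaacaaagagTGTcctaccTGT
Pcgf2: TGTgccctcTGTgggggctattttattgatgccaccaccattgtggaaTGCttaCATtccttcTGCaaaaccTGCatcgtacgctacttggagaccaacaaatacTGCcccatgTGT
Bmi1: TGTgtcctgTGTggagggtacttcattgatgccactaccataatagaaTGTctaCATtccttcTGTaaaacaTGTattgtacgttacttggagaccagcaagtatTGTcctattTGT

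The Ring1 window lies in exons 3 and 4 on the minus strand of chromosome 17 (chr17:34023173-34023390, the intron between them included), and the Rnf2 window in exons 4 and 5 on the minus strand (chr1:151476334-151476969). The Pcgf2 window lies in exons 3 and 4 on the minus strand (chr11:97692767-97693476), and that of Bmi1 in exons 2 and 3 on the plus strand (chr2:18681863-18682278). Over the 120 bases compared, Ring1 and Rnf2 were identical at 90 (75.0%), with no identical run longer than 8 bases. Pcgf2 and Bmi1 were identical at 94 of 117 bases (80.3%), the highest value among the PCGF pairs, which ranged down to 57.3% for Pcgf3 and Bmi1. The windows differed in base composition. GC content of the window was 59.2% in Ring1 and 41.7% in Rnf2, and 6 against 2 of the 8 zinc-binding codons ended in G or C. In Pcgf2 the window held 47.9% GC and 4 such codons, and in Bmi1 39.3% and 0.

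The same contrast ran through the whole transcripts. The GC content of the longest coding transcript was 60.7% for Ring1, 54.0% for Pcgf2 and 50.9% for Pcgf1, and lay between 39.5% (Rnf2) and 46.5% (Pcgf6) for the other 7 genes. GC content is given here because the replicates differed along it, as described below. All 10 genes are autosomal, and none of their annotated spans overlaps another gene of the table on either strand. Of the 50-base words of its transcript, Pcgf1 shared 31.3% with the pseudogene Gm8930, Bmi1 18.5% with Gm5946 and AC114652.1, and Rybp 9.5% with Rybp-ps. Counts of these 3 genes are uncertain to the extent that reads from such stretches could be placed at either copy, whereas the other 7 genes shared no such word with any other transcript.

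Fragments assigned to genes numbered 23716499 in replicate 1 and 20275749 in replicate 2. Levels are given as TPM, a transcript abundance that divides each count by a length and scales each library to a sum of 1000000. The table counted fragments over whole transcribed spans, introns included, and its length column is that span. TPM on this length is called span TPM. The study computed TPM from these counts, and the length it divided by is not stated. TPM on the exon bases that lie inside the counted span (exonic TPM) is given beside it, since introns differ widely in length among these genes. The study describes these mRNA data as holding very few intronic reads. Span TPM therefore tends to place genes with long introns lower, and genes with short introns higher, than exonic TPM does. Fragments carried no molecular identifiers and may include copies, so all intervals below reflect counting error alone.

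As a check of the cell type, all 8 embryonic stem cell markers examined had a mean of at least 1 span TPM (median 536), against 1 of 6 neural precursor markers (Nes, list median 0.344) and 1 of 8 fibroblast markers (Thy1, list median 0.0256). Summed span TPM of the stem cell list was 5046 in replicate 1 and 3338 in replicate 2, that of the neural list 14.9 and 14.1, and that of the fibroblast list 4.57 and 0.799. In the neural list Olig2 had 0 counts in both libraries, and in the fibroblast list Lum did. Sox1 was listed at 0 as well, but its span overlaps Gm5607 on the same strand, so its level could not be read.

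The catalytic subunits were represented almost entirely by Rnf2. Rnf2 had the highest mean span TPM of the 10 genes, above 95.9% of all genes in the table, whereas Ring1 had the lowest and was the single subunit gene with a mean under 1. By the same level, 52.7% of all genes had a mean of at least 1 span TPM.

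Rnf2 (chr1:151469405-151500823, minus strand) had 7154 counts in replicate 1 and 7848 in replicate 2. These gave 153 and 221 span TPM, a mean of 187 ± 47.8 (SD, n = 2), and an exonic TPM of 317 ± 69.6 (SD, n = 2). Ring1 (chr17:34020791-34024680, minus strand) had 9 counts in replicate 1 (95% exact Poisson interval 4.12 to 17.1) and 1 count in replicate 2 (0.0253 to 5.57). Its span TPM was 1.56 and 0.228, a mean of 0.894 ± 0.942 (SD, n = 2), and its exonic TPM was 0.303 ± 0.324 (SD, n = 2). The level of Ring1 therefore rested on 10 fragments in all.

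The log2 ratio of Ring1 to Rnf2 was -6.62 in replicate 1 in span TPM, with a 95% counting interval of -7.75 to -5.70. In replicate 2 it was -9.92 (-15.23 to -7.45), and the replicates averaged -8.27 ± 2.34 (SD, n = 2). Rnf2 was thus the higher gene in both replicates by far more than the counting error, while the size of the gap was not fixed by so few Ring1 fragments. On the exonic scale the mean ratio was -10.63 ± 2.34 (SD, n = 2). Within each library levels also fell as GC content rose, with a Spearman's rho of CPM (counts scaled to a library total of 1000000, with no length) and GC of -0.41 in replicate 1 and -0.50 in replicate 2 across 14363 genes, and of -0.59 and -0.61 across the 10 subunit genes. These rhos run across genes of the same libraries and are descriptions. The part of GC content in the Ring1 level was not tested.

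**Figure D1:**
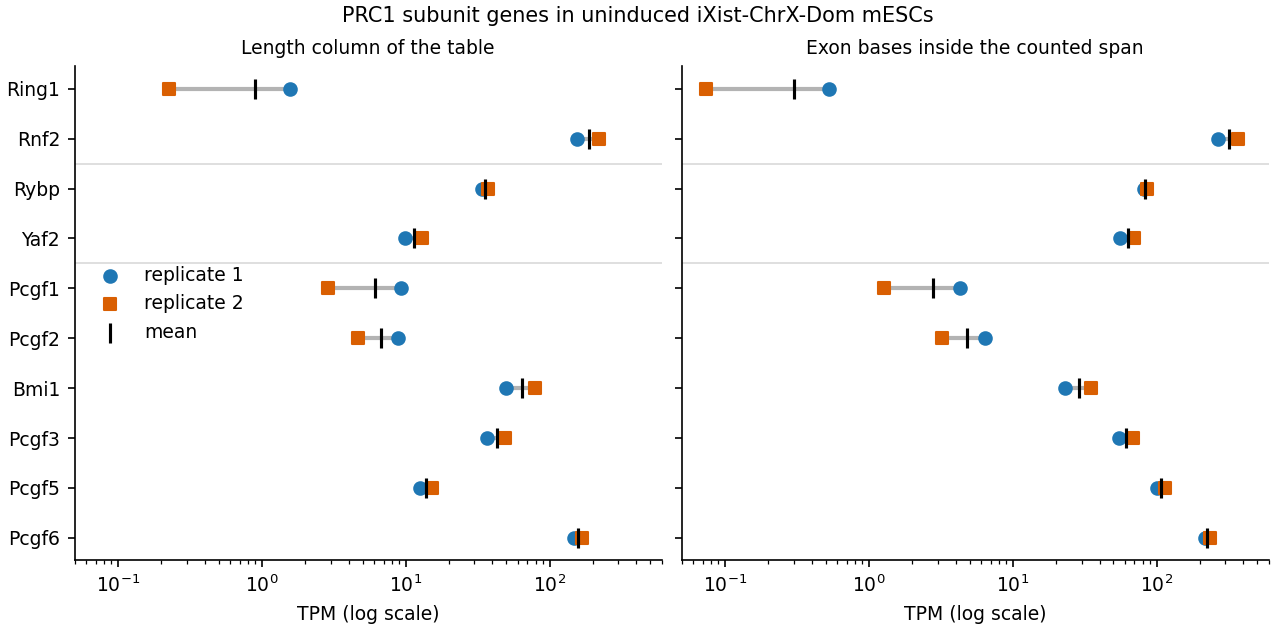
TPM of the 10 PRC1 subunit genes in both replicates, on the span length of the table (left) and on exon bases inside the counted span (right), with log axes; circles are replicate 1, squares replicate 2, ticks the mean, and grey bars join the replicates. Rnf2 and Pcgf6 stood highest on both scales and Ring1 lowest, while Pcgf5 and Yaf2 moved up and Bmi1 moved down on the exonic scale.

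Among the PCGF genes, Pcgf6 was the most abundant on every length scale, and Pcgf1 and Pcgf2 were the least. Bmi1 and Pcgf3 followed Pcgf6 in span TPM, and Pcgf5 followed it in exonic TPM. Divided by all annotated exon bases, Pcgf6 was followed by Pcgf3, Bmi1 and Pcgf5, whose neighbouring replicate ranges overlapped. Transcripts of all 6 PCGF genes were detected in both libraries.

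Pcgf6 (chr19:47033618-47050845, minus strand), of the complex with MGA and MAX, had 3764 and 3261 counts. Its span TPM was 147 in replicate 1 and 168 in replicate 2, a mean of 157 ± 14.3 (SD, n = 2), and its exonic TPM was 224 ± 12.3 (SD, n = 2). It overlapped Rnf2 in span TPM, although Rnf2 was the higher of the 2 within each replicate on either scale.

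Bmi1 and Pcgf2 encode alternative PCGF proteins of canonical PRC1. Bmi1 (chr2:18677017-18686629, plus strand) had 711 and 862 counts, which gave 49.9 and 79.4 span TPM, a mean of 64.6 ± 20.9 (SD, n = 2). Pcgf2 (chr11:97688822-97700497, minus strand) had 152 and 61 counts, or 8.78 and 4.62 span TPM with a mean of 6.70 ± 2.94 (SD, n = 2). Bmi1 was the higher of the pair in both replicates, with a log2 ratio of 2.51 in replicate 1 (95% counting interval 2.25 to 2.77) and 4.10 in replicate 2 (3.73 to 4.50). The intervals of the replicates did not overlap, so the ratio itself, 3.30 ± 1.13 (SD, n = 2), varied between replicates by more than the counting error. On the exonic scale Bmi1 stood at 29.0 ± 8.36 TPM and Pcgf2 at 4.83 ± 2.27 TPM (SD, n = 2), a mean log2 ratio of 2.64 ± 1.13 (SD, n = 2). Bmi1 thus fell from the third to the seventh place among the 10 genes when introns were left out of the length.

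Pcgf3 and Pcgf5, which build the complexes that initiate H2AK119ub1 on the Xist-coated chromosome, were both expressed before induction. Pcgf3 (chr5:108461331-108503099, plus strand) had 2272 and 2304 counts, 36.7 and 48.8 span TPM and a mean of 42.7 ± 8.59 (SD, n = 2). Pcgf5 (chr19:36379066-36456204, plus strand) had 1444 and 1315 counts, 12.6 and 15.1 span TPM and a mean of 13.9 ± 1.75 (SD, n = 2). In span TPM Pcgf3 exceeded Pcgf5 in both replicates, by 1.54 and 1.69 on the log2 scale with a mean of 1.62 ± 0.11 (SD, n = 2).

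This order turned on the exonic scale. Pcgf5 has a span of 77139 bases, of which the counted part holds 1730 exon bases, and Pcgf3 has a span of 41769 bases with 5032 counted exon bases. Exonic TPM was 107 ± 9.63 for Pcgf5 and 61.4 ± 10.2 for Pcgf3 (SD, n = 2), and the log2 ratio of Pcgf3 to Pcgf5 was then -0.89 in replicate 1 and -0.73 in replicate 2. For both genes some exon bases annotated in GENCODE M21 lie outside the counted span, which holds 25.6% of the annotated exon bases of Pcgf5 and 55.9% of those of Pcgf3. Divided by all annotated exon bases, the levels were 30.3 ± 2.67 TPM for Pcgf5 and 38.0 ± 6.20 TPM for Pcgf3 (SD, n = 2), and the log2 ratio was 0.32 ± 0.11 (SD, n = 2). Which of these genes is the more abundant could not be settled from counts over spans, and both stood above Pcgf1 and Pcgf2 on all 3 scales.

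Pcgf1 (chr6:83078389-83080855, plus strand), of the complex with KDM2B and BCOR, had 34 counts in replicate 1 (95% exact Poisson interval 23.5 to 47.5) and 8 in replicate 2 (3.45 to 15.8). These corresponded to 9.29 and 2.87 span TPM with a mean of 6.08 ± 4.54 (SD, n = 2), and to an exonic TPM of 2.80 ± 2.16 (SD, n = 2). Its range overlapped that of Pcgf2 on both scales.

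As a share of the summed PCGF signal in span TPM, Pcgf6 made up 55.7% in replicate 1 and 52.6% in replicate 2, a mean of 54.2% ± 2.16 (SD, n = 2). Bmi1 followed with 21.9% ± 4.30, Pcgf3 with 14.6% ± 1.04, Pcgf5 with 4.76% ± 0.0218, Pcgf2 with 2.39% ± 1.32 and Pcgf1 with 2.21% ± 1.85 (SD, n = 2 for each). On the exonic scale the share of Pcgf6 was 52.3% ± 1.52, that of Pcgf5 24.9% ± 0.152, that of Pcgf3 14.3% ± 1.17 and that of Bmi1 6.70% ± 1.39 (SD, n = 2 for each). Pcgf6 therefore accounted for over 50% of the pool in each replicate on both scales. With no length correction, which favours long transcripts, its share was 43.3% ± 2.25 (SD, n = 2) and still the largest. Divided by all annotated exon bases, Pcgf6 made up 69.0% ± 1.48 and Pcgf3 10.8% ± 0.970 (SD, n = 2 for each). Bmi1 then followed with 9.10% ± 1.95 and Pcgf5 with 8.67% ± 0.119 (SD, n = 2 for each).

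**Figure D2:**
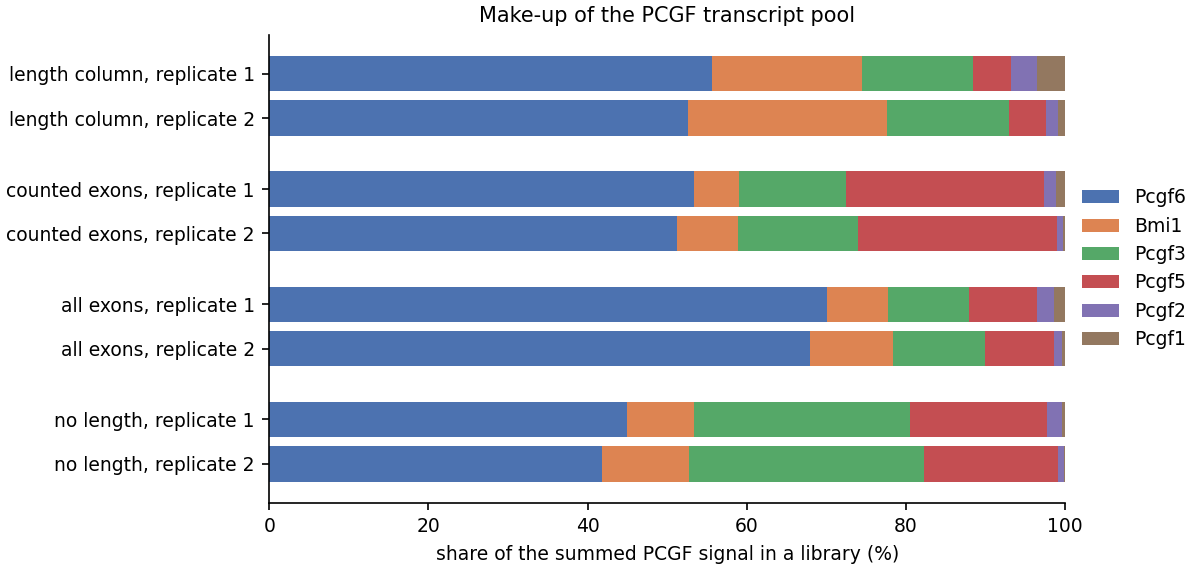
Share of each PCGF gene in the summed PCGF signal of a library (percent), for both replicates and for each way of using length: the span of the table, exon bases inside that span, all annotated exon bases, and no length. Pcgf6 held the widest segment in all 8 bars, and the Bmi1 and Pcgf5 segments changed with the length used far more than between replicates.

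Both RYBP-type subunits, which mark variant PRC1 and in the case of RYBP bind H2AK119ub1 itself, were expressed. Rybp (chr6:100228564-100287358, minus strand) had 2954 and 2482 counts, 33.9 and 37.4 span TPM and a mean of 35.6 ± 2.47 (SD, n = 2). Yaf2 (chr15:93283832-93336935, minus strand) had 779 and 782 counts, 9.89 and 13.0 span TPM and a mean of 11.5 ± 2.22 (SD, n = 2). The log2 ratio of Rybp to Yaf2 was 1.78 in replicate 1 (95% counting interval 1.66 to 1.89) and 1.52 in replicate 2 (1.40 to 1.64). Rybp was the higher gene in both replicates on every scale, but by less on the exonic scale, where the levels were 83.0 ± 2.75 and 62.9 ± 9.95 TPM (SD, n = 2) and the mean log2 ratio 0.41 ± 0.18 (SD, n = 2).

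In span TPM the order of the means was Rnf2, Pcgf6, Bmi1, Pcgf3, Rybp, Pcgf5, Yaf2, Pcgf2, Pcgf1 and Ring1. The replicate ranges overlapped for Rnf2 and Pcgf6, for Pcgf3 and Rybp, for Pcgf5 and Yaf2 and for Pcgf2 and Pcgf1. The ranges alone therefore do not set these neighbours apart. Compared within each library, Rnf2 was above Pcgf6, Pcgf3 above Rybp and Pcgf5 above Yaf2 in both replicates, whereas Pcgf1 was above Pcgf2 in replicate 1 and below it in replicate 2. In exonic TPM the order was Rnf2, Pcgf6, Pcgf5, Rybp, Yaf2, Pcgf3, Bmi1, Pcgf2, Pcgf1 and Ring1, and the ranges overlapped for Yaf2 and Pcgf3 and for Pcgf2 and Pcgf1. An exact permutation test of 2 values against 2 reaches at best a two-sided p of 0.333, and the order is therefore described by these ranges. The 10 genes together summed to 463 span TPM in replicate 1 and 590 in replicate 2, and their median was 24.7 span TPM.

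The replicates were then compared gene by gene, since they set the error of every level above. The pair of counts was compared with the ratio of library totals by an exact binomial test (two-sided) for all 14536 genes that reached 10 counts in total, with Benjamini-Hochberg adjustment at 0.05. It compares these libraries and no conditions. It called 7 of the 10 subunit genes, against a background of 60.8% of all genes tested, so that the share among the subunit genes was near that of genes in general. In replicate 2, 4 of the 10 were higher (background 15.1%) and 3 were lower (background 45.7%).

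The genes that were lower in replicate 2 were the 3 GC-rich ones. Pcgf1 differed by a log2 ratio of replicate 2 to replicate 1 of -1.86 in CPM (95% interval -3.18 to -0.72, exact binomial adjusted p = 0.0011), and Pcgf2 by -1.09 (-1.54 to -0.65, exact binomial adjusted p = 9.01e-07). Ring1 differed by -2.94 (-8.40 to -0.09) with an exact binomial adjusted p of 0.0425, a call that rested on 9 against 1 count. The genes that were higher were Bmi1 (log2 ratio 0.50), Rnf2 (0.36), Pcgf3 (0.25) and Yaf2 (0.23), with exact binomial adjusted p-values between 2.98e-51 for Rnf2 and 0.00338 for Yaf2. Pcgf5 (0.09, interval -0.02 to 0.20), Pcgf6 (0.02, -0.05 to 0.09) and Rybp (-0.03, -0.10 to 0.05) were not called. Of the 8 stem cell markers, 1 was called higher and 7 lower in replicate 2, and against the GC trend described below 2 were higher and 5 lower. The part of the marker shift in the differences of the subunit genes was not tested.

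The median log2 ratio of all genes tested was -0.31. Relative to other scalings the ratios shift as a block: TMM factors added 0.26 and DESeq2 size factors 0.31 to every log2 ratio. With either, 9 of the 10 genes were called (57.7% of all genes tested with TMM factors and 57.8% with DESeq2 size factors), 7 higher and 2 lower in replicate 2, with Ring1 no longer called (adjusted p = 0.0862 and 0.0902 by the exact binomial test). Among all genes the share of calls that were higher in replicate 2 went from 24.9% to 49.9% with TMM factors and 54.8% with DESeq2 size factors. Rybp, at -0.03 in CPM, turned to 0.23 and 0.29.

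Across 9224 autosomal genes that reached 50 counts in both replicates, the log2 ratio fell with GC content, with a Spearman's rho of -0.66 as a description across genes of the same 2 libraries. Genes of 35 to 40% GC had a median log2 ratio of 0.33, those of 45 to 50% one of -0.16 and those of 55 to 60% one of -0.72. In the 121 genes of 60 to 65% GC, the range that holds the GC content of Ring1, the median was -0.65, so the ratio fell no further there. Across the 10 subunit genes rho was -0.87. All 7 genes under 50% GC had log2 ratios from -0.03 to 0.50, and the 3 genes above it from -2.94 to -1.09.

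Testing the counts against the ratio that the GC trend gives for each gene called 6 of the 10 (44.6% of 14363 genes tested), 4 higher and 2 lower, and 51.8% of the calls among all genes were higher. Pcgf1 stayed lower by -1.39 on the log2 scale (exact binomial adjusted p = 0.0259), while Pcgf2 (-0.44) and Ring1 (-2.18) were not called (adjusted p = 0.091 and 0.291, exact binomial). Pcgf5 changed sign, from 0.09 to -0.14 (exact binomial adjusted p = 0.0332). Bmi1 at 0.27, Pcgf3 at 0.22, Pcgf6 at 0.19 and Rnf2 at 0.09 were called higher, and Yaf2 at 0.11 and Rybp at -0.06 were not called (adjusted p = 0.212 and 0.224, exact binomial). Pcgf3 kept nearly all of its difference after the trend (0.25 before, 0.22 after), while Bmi1 and Rnf2 kept a smaller part. Span length moved with the ratio as well: among the 9224 genes the median log2 ratio after the trend was -0.14 for spans under 5000 bases and 0.14 for spans of 50000 bases and more. Pcgf1 (2467 bases) and Ring1 (3890 bases) also have short spans, but had too few counts to be among those genes. The part of span length in the differences of these genes was not tested.

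**Figure D3:**
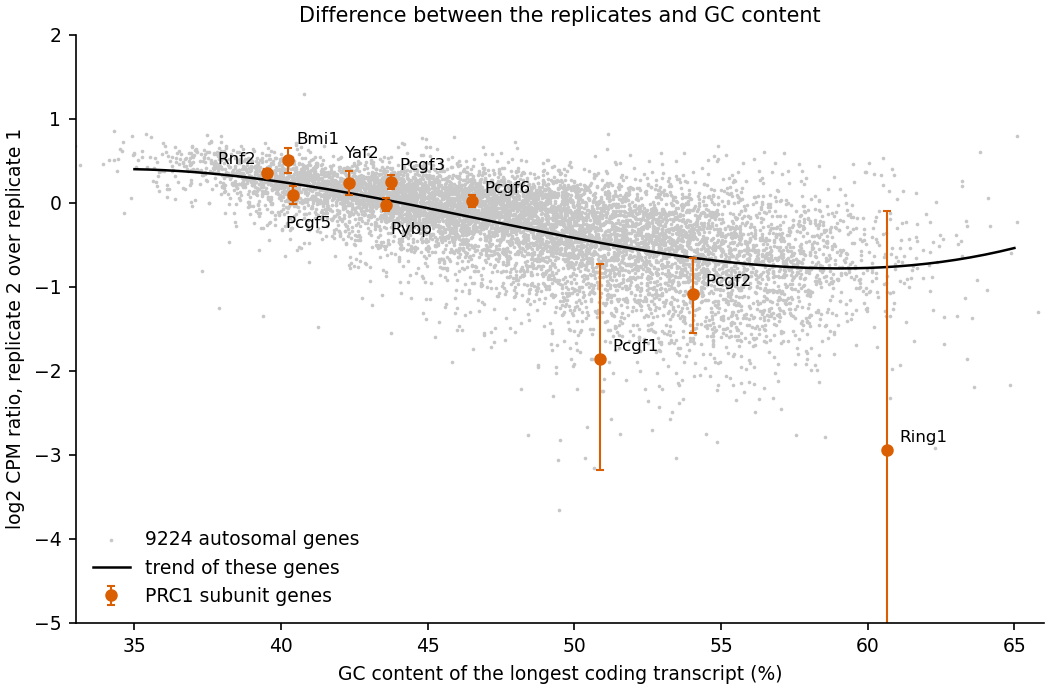
Log2 ratio of CPM in replicate 2 to replicate 1 against GC content of the longest coding transcript (percent) for 9224 autosomal genes (grey), their fitted trend (line) and the 10 PRC1 subunit genes (orange, bars 95% counting intervals; that of Ring1 runs off the axis to -8.40). The 3 subunit genes above 50% GC lay below 0 and the 7 others between -0.03 and 0.50.

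The neighbours of Ring1 on chromosome 17 were read in the same way. Of the 12 tested genes whose spans lie within 100 kb of Ring1, 7 were called lower and 0 higher by the exact binomial test, with a median log2 ratio of -1.15, a median GC content of 57.5% and a median of -0.57 after the GC trend. Among all genes 45.7% were called lower, and their median log2 ratio was -0.31 before and -0.01 after the trend. This window was chosen after the values were seen.

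Genes that work with the PRC1 core were examined as 6 lists, of 35 genes in all. Of these, 31 had a mean of at least 1 span TPM, a level that 52.7% of all genes reached. Their list had a median of 23.99 span TPM against 24.7 for the core genes. In exonic TPM the medians were further apart, at 39.2 and 62.1. Of the 33 with enough counts to test, 24 differed between the replicates, beside the 60.8% of all genes tested that were called. In replicate 2, 7 were higher and 17 lower (15.1% and 45.7% of all genes tested). The median log2 ratio of the 33 genes was -0.27 (all genes tested -0.31). Against the GC trend 26 were called (44.6% of all genes), 17 higher and 9 lower (51.8% of the calls among all genes were higher), with a median log2 ratio of 0.18. The lists gave the following levels.

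In the canonical complex, Cbx7 was the most abundant of the CBX genes examined whose level could be read (Cbx7, Cbx2 and Cbx8), with 550 and 283 counts and a mean of 18.4 ± 5.05 span TPM (SD, n = 2). Cbx2 had 51 and 16 counts (2.94 ± 1.73 span TPM; SD, n = 2). Cbx8 was not detected. With 0 counts in either library, its level could still be as high as 0.126 CPM (replicate 1) or 0.148 CPM (replicate 2). The counted span of Cbx8 holds 38.9% of its annotated exon bases, so the 0 and these limits cover only that part. Cbx6 was also listed at 0, but its span lies inside that of Npcd on the same strand, where fragments could be assigned to neither gene, so its level could not be read. Among the polyhomeotic and SCM genes, whose proteins polymerise through SAM domains, Phc1 was highest at 79.7 ± 8.83 and Phc2 lowest at 0.872 ± 0.029 span TPM (SD, n = 2). On the exonic scale Phc2 stood at 3.47 ± 0.0104 TPM (SD, n = 2) over a span of 98181 bases.

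In the PCGF1 list all 5 genes had at least 1 span TPM, beside 52.7% of all genes. The highest was Skp1a at 1228 ± 75.8 span TPM, an adaptor that SCF ubiquitin ligases use as well, and the lowest was Bcorl1 at 1.55 ± 0.00244 span TPM (SD, n = 2). In the PCGF6 list all 9 genes passed the same level, from Hdac2 at 263 ± 5.79 to L3mbtl2 at 9.10 ± 4.73 span TPM (SD, n = 2). L3mbtl2, which encodes an MBT-domain protein, had 451 and 159 counts and was lower in replicate 2 by a log2 ratio of -1.28 (-0.58 after the GC trend).

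The partners of PCGF3 and PCGF5 were all detected. Casein kinase 2 was represented by its catalytic genes Csnk2a2 at 127 ± 12.4 and Csnk2a1 at 114 ± 10.7 span TPM, an order that turned on the exonic scale (108 ± 6.69 and 259 ± 14.8 TPM; SD, n = 2), and by its regulatory gene Csnk2b at 68.2 ± 45.9 span TPM (SD, n = 2 for each). Csnk2b had 784 and 212 counts, a log2 ratio of -1.66 between the replicates (-1.04 after the GC trend), whereas Csnk2a1 differed by 0.02 (0.02 after the trend) and Csnk2a2 by 0.03 (0.39 after the trend, exact binomial adjusted p = 1.16e-54). Dcaf7 stood at 57.7 ± 3.52, Fbrs at 10.2 ± 1.84 and Fbrsl1 at 7.26 ± 1.32 span TPM (SD, n = 2 for each). The order of Fbrs and Fbrsl1 turned as well, to 4.205 ± 0.911 and 22.3 ± 4.87 exonic TPM (SD, n = 2 for each). Both levels are uncertain. The span of Fbrsl1 overlaps LOC101056043 on the same strand, where fragments could be assigned to neither gene. The counted span of Fbrs holds 63.5% of its annotated exon bases. Auts2, whose product recruits a coactivator to this complex, had 1735 and 1223 counts but only 1.02 ± 0.0558 span TPM, because its span covers 1104663 bases. On the exonic scale it stood at 28.5 ± 2.59 TPM (SD, n = 2).

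Among the genes that remove H2AK119ub1, Usp16 was highest at 62.1 ± 5.38 span TPM and Asxl3 lowest at 0.604 ± 0.0424 span TPM (SD, n = 2). Usp16 had 2468 and 2125 counts and a log2 ratio of 0.01 between the replicates. The background for the counts by list is again the 60.8% of all genes called. By list, the share of tested genes that differed between replicates was 2 of 2 for canonical CBX, 4 of 5 for PHC and SCM, 3 of 5 for PCGF1, 5 of 7 for PCGF3 and PCGF5, 7 of 9 for PCGF6 and 3 of 5 for the deubiquitinases. Higher calls in replicate 2 came from the PHC and SCM list (3 genes), the PCGF6 list (3) and the deubiquitinases (1). Among all genes tested 15.1% were called higher, which was 24.9% of the calls. Against the GC trend these tallies were different, with 5 higher calls in the PHC and SCM list, 3 in the PCGF1 list, 4 in the PCGF3 and PCGF5 list, 4 in the PCGF6 list and 1 among the deubiquitinases, beside the same 51.8% of higher calls among all genes called.

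**Figure D4:**
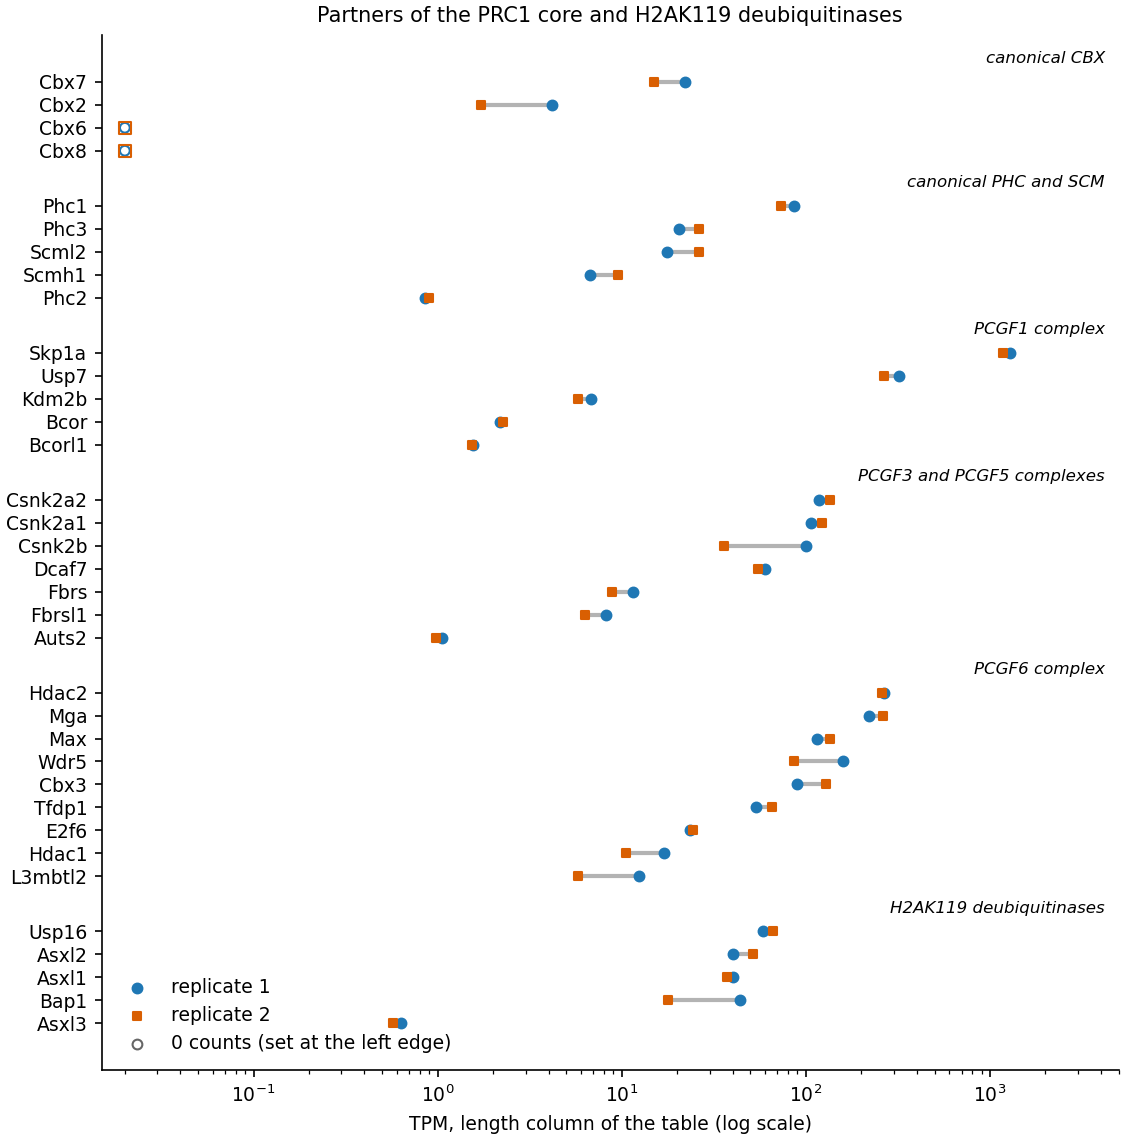
Span TPM (log axis) of the 35 partner and deubiquitinase genes by list in replicate 1 (blue circles) and replicate 2 (orange squares), with grey bars joining the replicates and open symbols at the left edge for 0 counts in both. Cbx7 stood highest among the readable CBX genes at 18.4 on average, and Csnk2b, at 101 and 35.7, had the widest gap in its list.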

How the data were processed

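Polyadenylated RNA from uninduced iXist-ChrX-Dom mESCs was sequenced in 2 replicates of 1 group. The authors counted fragments per gene with featureCounts (version 1.5.2), in pairs, reverse-stranded, over transcript features summarised by gene on mm10, and deposited raw counts with span lengths. The submitters' processing notes also name STAR 2.4.2a and Bowtie2 2.3.2. For its chromatin RNA libraries the study kept unique hits on a strain-masked genome, and the alignment settings of these mRNA libraries are not given in the sources used here. Depth was 23716499 and 20275749 counts, and a count of 0 allows 3 counts (0.126 and 0.148 CPM).

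TPM and CPM were computed from the deposited counts (Python 3.11.15, pandas 2.3.3) and averaged over replicates. Exonic lengths, GC content and sequences came from the GENCODE M21 basic annotation, matched for 97.9% of genes by symbol (21204) or synonym (873). Log2 ratios between replicates used CPM without pseudocount. Counts of replicates were compared by two-sided exact binomial tests (scipy 1.17.1) with exact 95% intervals, after testing on simulated data. Alternatives were exonic length, no length, edgeR 4.0.16 TMM factors, DESeq2 1.42.0 size factors (R 4.3.3), a degree 3 GC trend, other minimum counts and leaving out each replicate. The genes named are the 10 subunit genes, all genes of the CBX and PCGF3 and PCGF5 lists, and the highest and lowest of each other list, with genes overlapping those named. Phc2 exonic values, the markers at 0 counts, the stem cell markers with the largest falls and the genes sharing words were added. A few genes of the lists are not reported here and are left out of their counts. The members and lists were chosen with earlier results of these data known.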

Additional observations from a re-analysis of the deposited data

How the results depend on the processing

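Across the 29 results recomputed, 115 alternative values were obtained, of which 78 kept their direction and call, moved by less than the spread between replicates or, for counts of genes, stayed within 1.5 times, 23 moved by more, 5 gained a call, 5 lost one and 4 changed sign. TPM on exon bases inside the counted span was chosen after seeing the data. It gave a log2 ratio of -0.81 for Pcgf3 over Pcgf5 (sign changed), -10.63 for Ring1 over Rnf2 and 0.41 for Rybp over Yaf2, and a median of 62.1 TPM for the 10 genes. All annotated exon bases gave 0.37 for Rybp over Yaf2, 0.32 for Pcgf3 over Pcgf5, a Pcgf6 share of 69.0% and a median of 35.04 TPM. Without length, Ring1 over Rnf2 was -11.29, Pcgf3 over Pcgf5 0.73 and the Pcgf6 share 43.3%. The replicate ratio changed sign for Rybp with TMM (0.23) and DESeq2 factors (0.29) and for Pcgf5 under the GC trend (-0.14). Leaving out either replicate gave a median of 23.2 to 26.2 TPM. Without a minimum 6 of the 10 subunit genes were called (48.5% of all genes), and with at least 10 counts in each replicate 5 of the 8 tested (65.2%). Ring1 and Pcgf1 rest on 10 and 42 counts, which limits their levels. No paired analysis was possible because both libraries belong to a single group, so no groups share replicate numbers. Ratios between genes were taken within each library.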
